A study of Mus musculus with 12 samples.

Results

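Astrocyte-enriched genes are genes known for high levels in astrocytes, and 33 of them were followed here in the septum of lactating and virgin mice. Which cells of the tissue their RNA came from was not measured. They were listed by symbol, as genes known to mark astrocytes or to be high in them, with earlier results of these data known. The rule for finding them on the array uses no measured value beyond the brightness of a probe group. All 33 were found among the 19938 genes that the array measures through a probe group with 1 gene symbol. Such a probe group is called a transcript cluster, and where a gene had several, the one with the highest mean intensity over all mice was used. Only Cldn10 had more than 1, so for the other 32 genes no choice arose. The gene Etnppl stands in the array's annotation under its older symbol Agxt2l1.

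Astrocytes are glial cells that wrap blood vessels and synapses, clear transmitters and potassium from the space between neurons, and are joined to each other by gap junctions. They feed neurons, carry water and ions at their end feet, and release lipoproteins and matrix proteins. After injury or inflammation they become reactive, a state known for more of the filament proteins Gfap and Vim and of secreted proteins such as Lcn2. In rats, astrocytes of the hypothalamus are known to change shape around birth and lactation.

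The samples were 6 lactating and 6 virgin female mice, with 1 array per mouse and no pooling. All came from 1 line bred for strong defense of offspring out of the outbred hsd:ICR stock, and all were about 70 days old and ate breeder chow. Lactating mice had been housed with an hsd:ICR male for mating and were dissected on postpartum days 6 to 8 after living alone with their pups, while virgin mice had been housed in company over the same time and then alone. Virgin mice were in estrus or diestrus, never in proestrus, and which mouse was in which stage is not given in the sources used here. The groups therefore differ in mating, pregnancy, birth, nursing and contact with pups at once. Punches of both sides of the septum were taken, described as the lateral septum in the sample descriptions and as the whole septum in the study's methods. In RNA from whole tissue, fewer astrocytes and less RNA per astrocyte cannot be told apart.

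The tissue carried the astrocyte genes clearly. Of the 33 genes, 32 had a mean intensity above 331, the median over all 35556 transcript clusters, and the exception was Ranbp3l at 229. Median intensity per array lay between 320 and 339. Some mice stood apart from the rest. Genes of oligodendrocytes summed to 21160 in lactating mouse 5 and 22079 in lactating mouse 6, against 14883 to 19391 in the other mice. In lactating mouse 4, genes of excitatory neurons of cortex and hippocampus had a summed intensity of 7518 over the 5 that were measured, against 2081 to 3775 in the other 11 mice. Its 6 genes of meningeal fibroblasts summed to 5035, against 2609 to 3577 in the others. Its striatal genes had the lowest sum of all mice, 7005.5. Within the list of cortex and hippocampus, Emx1 and Neurod2 were not highest in this mouse. They were at 302 and 1608.5, against up to 372 and 1703 in other mice. Virgin mouse 6 held the next highest sums of the cortical and hippocampal and of the meningeal genes, 3775 and 3577. It also had high levels of genes of reactive astrocytes and of some genes of microglia, which are described with Gfap and Vim. The counts of higher and lower genes are given with and without lactating mouse 4 and virgin mouse 6.

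Few of the astrocyte-enriched genes differed between the groups. With an unadjusted p under 0.05 in limma, a linear model with variance shared across clusters, fitted on log2 of intensity plus 16, 5 of 33 were higher in lactating mice and 1 was lower. The higher genes were Etnppl, Gjb6, Htra1, Plcd4 and Sparcl1, and the lower one was Slc4a4. The share of higher genes was 15.2%, against a background of 3.26% of all clusters and 4.92% of clusters above the median intensity. The share of lower genes was 3.03%, against a background of 4.69% of all clusters and 2.19% of the brighter clusters. Because the genes were chosen with earlier results of these data known, these shares describe the list and do not test it. In a fit of only the 21789 clusters with 1 gene symbol, 943 clusters were higher and 1198 lower. In a fit of only the 17778 brighter clusters, 1142 were higher and 501 lower. Both fits called 5 of the astrocyte genes higher and 1 lower. The split of higher and lower depended on the scaling of the arrays. It was 5 to 2 among the astrocyte genes after quantile normalization or cyclic loess and 5 to 0 after subtraction of each array's median, where all clusters split into 1300 higher and 1191 lower, 1340 and 1129, and 2027 and 992, in place of 1160 and 1668. Without lactating mouse 4 and virgin mouse 6, 3 genes were higher and 0 were lower, and of all clusters 759 were higher and 945 lower.

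None of these differences passed adjustment for the number of clusters. The smallest Benjamini-Hochberg adjusted p among the 33 genes was 0.619 in limma, and the background of clusters with an adjusted p under 0.05 was 0.0%, with 2828 clusters at an unadjusted p under 0.05. On linear intensities limma gave 1 cluster with an adjusted p under 0.05. For 0 of the 33 genes did all lactating mice lie above or all below the virgin mice, a pattern shown by 0.394% of all clusters.

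As a list, the genes stayed close to 0. The median difference, lactating minus virgin, was 0.04 on the log2 scale, with quartiles of 0.0024 and 0.07, and it was -0.0093 over all clusters and 0.02 over those above the median intensity. It was 0.02 after quantile normalization, 0.02 after cyclic loess and 0.06 after subtraction of each array's median, where the median over all clusters was -0.0016, 0.0002 and 0.01. The difference was above 0 for 25 genes and below 0 for 8, and the share of all clusters above 0 was not counted. For 25 genes the 95% interval of the difference lay within a 1.2-fold change in either direction, and 22 of these are among the 27 genes that were called neither higher nor lower. The standard deviation between mice within groups was 0.05 on the log2 scale for Sparcl1, the least variable gene, and 0.47 for Gfap, the most variable, with a median of 0.09 over the genes.

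**Figure D1:**
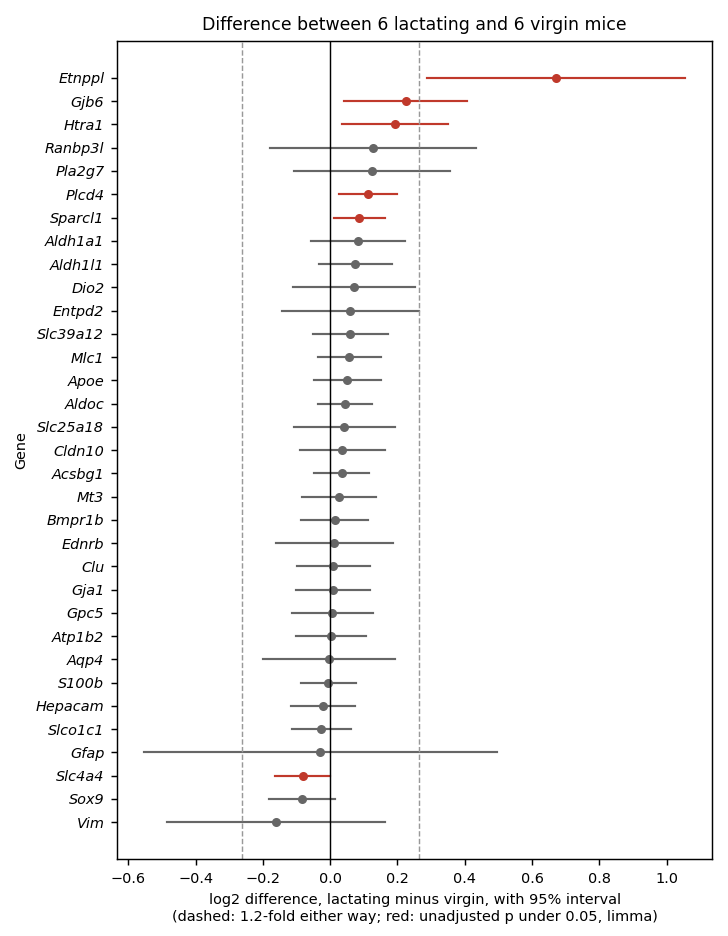
Difference in log2(intensity + 16) between 6 lactating and 6 virgin mice for each of the 33 astrocyte-enriched genes, with points for the estimate, bars for the 95% interval, red for an unadjusted limma p under 0.05 and dashed lines at a 1.2-fold change. Etnppl lies farthest to the right at 0.67, Slc4a4 is the only red gene left of 0, and Gfap and Vim have wide intervals.

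The largest difference was in Etnppl, the lyase that breaks down phosphoethanolamine, a building block of membrane lipids. Lactating mice had a lowest intensity of 429, a median of 863 and a highest of 986, and virgin mice a lowest of 373, a median of 503 and a highest of 586. Thus 5 of 6 lactating mice lay above every virgin mouse, and lactating mouse 6 lay inside the virgin range. The mean was 810 ± 194 (SD, n = 6) against 493 ± 82.0 (SD, n = 6), which is 64.5% higher, and the log2 difference was 0.67 (SE 0.18; limma p = 0.0023; exact permutation p = 0.013). Without lactating mouse 6 the difference was 0.84 (SE 0.10; limma p = 3.68e-06, adjusted p = 0.131; exact permutation p = 0.00216), and without any other single mouse it was 0.60 to 0.72, with adjusted p from 0.392 to 0.895.

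Gjb6 encodes a connexin of the gap junctions between astrocytes. Its lactating intensities were 1596 at the lowest, 1929 at the median and 2340 at the highest, and its virgin intensities were 1524, 1652 and 1908. The groups overlapped, with 4 lactating mice above every virgin mouse, and lactating mouse 6 was again the lowest of its group. That mouse was also the lowest of its group for Htra1 and, at 11673 against 11675 in lactating mouse 1, for Sparcl1, but not for Plcd4. Means of Gjb6 were 1960 ± 264 and 1667 ± 135 (SD, n = 6 each), a rise of 17.6%, with a log2 difference of 0.22 (SE 0.08; limma p = 0.020; exact permutation p = 0.037). Without lactating mouse 4 and virgin mouse 6 together the difference was 0.20 (limma p = 0.060; exact permutation p = 0.103). Without any single mouse the limma p stayed under 0.05, but the exact permutation p was above 0.05 for 9 of 12 mice left out, up to 0.076.

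The RefSeq promoters of Etnppl and Gjb6, the genes with the most positive differences, are shown because they give the DNA before the start of each. They run from 250 bases before to 50 bases after the start in build GRCm38.p6, printed 5′ to 3′ along the transcribed direction, at chr3:130617325-130617624 on the plus strand for 1 of the 2 listed starts of Etnppl and chr14:57133562-57133861 on the minus strand for Gjb6. The promoter of the other listed start of Etnppl, at chr3:130617198-130617497, holds none of the motifs searched. The capitals mark TTGGCA, the motif of nuclear factor I, a family of factors known for driving astrocyte genes.
Etnppl: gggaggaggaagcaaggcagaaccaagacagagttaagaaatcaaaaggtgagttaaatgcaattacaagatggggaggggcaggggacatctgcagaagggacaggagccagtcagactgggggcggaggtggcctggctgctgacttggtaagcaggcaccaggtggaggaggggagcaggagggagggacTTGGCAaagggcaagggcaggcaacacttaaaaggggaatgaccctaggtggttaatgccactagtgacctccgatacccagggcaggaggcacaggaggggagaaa
Gjb6: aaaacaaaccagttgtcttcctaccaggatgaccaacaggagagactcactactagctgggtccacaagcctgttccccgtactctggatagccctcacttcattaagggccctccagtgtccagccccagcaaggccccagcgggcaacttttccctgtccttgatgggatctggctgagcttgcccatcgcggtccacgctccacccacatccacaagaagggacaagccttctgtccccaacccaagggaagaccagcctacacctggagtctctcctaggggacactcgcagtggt
The motif TTGGCA, read on both strands, was in the promoters of 6 of the 28 astrocyte-enriched genes that had a promoter in the table, Aldh1a1, Aldoc, Apoe, Etnppl, Hepacam and S100b, which is 21.4%, and in 16.1% of all genes. TTCNNNGAA, the STAT motif, was in 4 of them, Acsbg1, Aldoc, Gfap and Pla2g7, or 14.3% against 9.55% of all genes. ACANNNTGT, the core of the glucocorticoid response element, was in Cldn10 alone, or 3.57% against 7.90%. Of the 6 genes with a difference between the groups, Etnppl was the only one with any of these motifs, among those matched to the table.

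Secreted and surface proteins held 2 higher genes among 5. Htra1 encodes a secreted serine protease that cuts matrix proteins. Its intensities in lactating mice ran from 2214 through a median of 2395 to 2512, and those in virgin mice from 1637 through 2160 to 2280. A total of 5 lactating mice lay above every virgin mouse, and virgin mouse 2 was far below the rest of its group. The mean was 2384 ± 117 against 2094 ± 236 (SD, n = 6 each), or 13.9% higher, and the log2 difference of 0.19 (SE 0.07; limma p = 0.020; exact permutation p = 0.0087) became 0.12 (SE 0.04; limma p = 0.015; exact permutation p = 0.017) without virgin mouse 2.

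Sparcl1, also called hevin, is a matrix protein that astrocytes release and that promotes synapses in rodents. Lactating mice had 11673, 12129 and 12844 as lowest, median and highest intensity, and virgin mice had 11117, 11443 and 11729. Of the lactating mice, 4 were above every virgin mouse and 2 were in the virgin range. The rise was 6.17%, from 11433 ± 280 to 12138 ± 455 (SD, n = 6 each), with a log2 difference of 0.09 (SE 0.04; limma p = 0.030; exact permutation p = 0.013). The limma p exceeded 0.05 when lactating mouse 2, 3 or 4 or virgin mouse 1, 2 or 6 was left out, with differences of 0.07 to 0.08. The largest of these was limma p = 0.074, without lactating mouse 4, where the exact permutation p was 0.024. Lactating mouse 4 held the highest value of this gene. With virgin mouse 6 left out as well, the difference was 0.06 (limma p = 0.133; exact permutation p = 0.048). The other genes of this group were Apoe, the lipid carrier of the brain, Clu, a secreted chaperone, and Gpc5, a heparan sulfate proteoglycan of the cell surface. Their differences were 0.05, 0.0097 and 0.0068 on the log2 scale, and none passed the test.

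Among 10 enzymes and metal-binding proteins, Plcd4 was the higher gene besides Etnppl. Plcd4 encodes a phospholipase C, which splits a membrane phosphoinositide into second messengers. Its lowest, median and highest intensities were 582, 607 and 634 in lactating mice and 518, 566 and 588 in virgin mice. Again 5 of 6 lactating mice exceeded every virgin mouse, and the spread within each group was small. The mean was 607 ± 19.2 against 561 ± 27.1 (SD, n = 6 each), 8.28% higher, with a log2 difference of 0.11 (SE 0.04; limma p = 0.014; exact permutation p = 0.0065), and the call held without any single mouse.

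The other 8 enzymes and metal-binding proteins did not pass the test. Aldh1l1, a folate enzyme widely used to mark astrocytes, had lactating intensities of 841 to 997 around a median of 929 and virgin intensities of 826 to 952 around 863. The ranges overlapped over most of their width, and the log2 difference was 0.07 (SE 0.05; limma p = 0.162; exact permutation p = 0.145). The differences of the others ran from 0.03 in Mt3 to 0.12 (SE 0.11) in Pla2g7. These others were Aldoc (glycolysis), Acsbg1 (activation of fatty acids), Aldh1a1 (retinoic acid synthesis), Dio2 (activation of thyroxine), Entpd2 (breakdown of extracellular ATP), Pla2g7 (breakdown of platelet-activating factor) and Mt3 (binding of zinc and copper). All 10 enzymes and metal-binding proteins had a difference above 0, with a median of 0.07. Leaving out single mice took Entpd2 to -0.0095 and Mt3 to -0.0024 at the lowest.

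**Figure D2:**
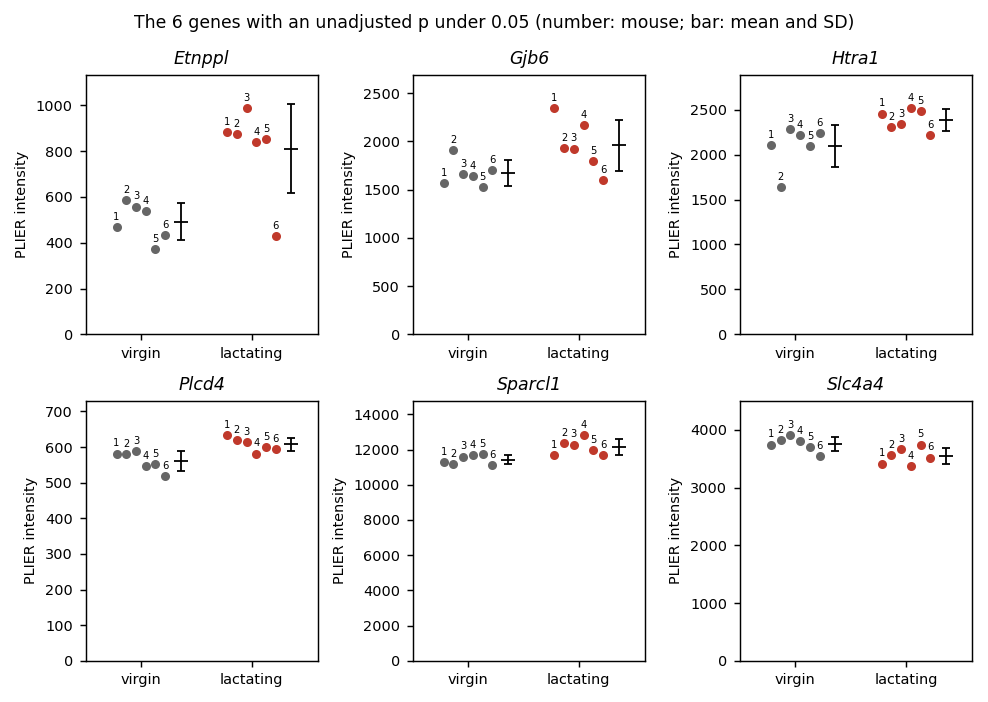
PLIER intensity of the 6 genes with an unadjusted limma p under 0.05 in each virgin mouse (grey) and lactating mouse (red), numbered by mouse, with bars for the mean and SD of each group. Lactating mouse 6 lies among the virgin mice for Etnppl at 429, virgin mouse 2 lies low for Htra1 at 1637, and the groups overlap in every panel.

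Genes of water, ion and solute transport held the only lower gene, 1 of 8. Slc4a4 is a sodium bicarbonate cotransporter that sets the pH in and around astrocytes. Its lowest, median and highest intensities were 3376, 3545 and 3744 in lactating mice and 3553, 3774 and 3917 in virgin mice. The groups overlapped, with 3 lactating mice below every virgin mouse. Mean intensity fell by 5.53%, from 3757 ± 123 to 3549 ± 142 (SD, n = 6 each), and the log2 difference of -0.08 (SE 0.04; limma p = 0.048; exact permutation p = 0.026) had a 95% interval ending at -0.0008. In limma the call was lost when any of 9 of the 12 mice was left out, that is all but lactating mouse 3, lactating mouse 5 and virgin mouse 6, with differences of -0.09 to -0.07. Without lactating mouse 4, where limma p was highest at 0.109, the exact permutation p was 0.048. The exact permutation p exceeded 0.05 without virgin mouse 3, at 0.056. The call was also lost when each array's median was subtracted, where the difference was -0.06.

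Aqp4, the water channel of astrocyte end feet, had nearly the same mean in both groups. Lactating mice ranged from 1065 through 1288 to 1550 and virgin mice from 1140 through 1328 to 1461, and the log2 difference was -0.0026 (SE 0.09; limma p = 0.978; exact permutation p = 0.978). The remaining 6 genes lay between -0.03 and 0.06 on the log2 scale. They were Mlc1 and its partner in the membrane Hepacam, the sodium pump subunit Atp1b2, the zinc transporter Slc39a12, the thyroxine transporter Slco1c1 and the mitochondrial glutamate carrier Slc25a18. None of these 6 passed the test. Over the 8 transport genes the median difference was -0.0001.

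Junction genes other than Gjb6 did not pass the test. Gja1, the main connexin of astrocytes, had lowest, median and highest intensities of 4248, 4445 and 4834 in lactating mice and 4131, 4303 and 4939 in virgin mice. The virgin range enclosed the lactating range, and the log2 difference was 0.0089 (SE 0.05; 95% interval -0.10 to 0.12; limma p = 0.864; exact permutation p = 0.870). Whether the difference in Gjb6 exceeded that in Gja1 was not tested. Cldn10, a claudin, gave 0.04 in its brighter cluster and 0.04 in its second cluster, and neither passed the test.

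The filament and identity genes were the only role group among the 33 genes with all differences below 0, although S100b was at 0.02 when each array's median was subtracted and Gfap at 0.0009 with array weights. They were Gfap and Vim, which form intermediate filaments, S100b, a calcium-binding protein, and Sox9, a transcription factor that specifies astrocytes. None of the 4 passed the test, and the median difference was -0.06. Sox9 came nearest, with lactating intensities of 1388, 1520 and 1636 as lowest, median and highest and virgin intensities of 1538, 1571 and 1697. Of the lactating mice, 4 lay below every virgin mouse, and the log2 difference was -0.08 (SE 0.05; limma p = 0.086; exact permutation p = 0.076). After quantile normalization or cyclic loess it was -0.11 and passed the unadjusted threshold of limma. S100b had 1450 to 1582 around a median of 1507 in lactating mice and 1440 to 1629 around 1523 in virgin mice, with a difference of -0.0054 (SE 0.04; limma p = 0.891; exact permutation p = 0.879).

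Gfap and Vim were dominated by 1 virgin mouse. For Gfap, lactating mice had 659 as the lowest, 1001 as the median and 1260 as the highest intensity, and virgin mice had 718, 869 and 2025. For Vim these values were 2371, 2511 and 3016 in lactating mice and 2318, 2767 and 4921 in virgin mice. Virgin mouse 6 held the highest value of both genes, 2.21 times the mean of the other 11 mice for Gfap and 1.86 times for Vim. The other virgin mice lay at 718 to 1018 for Gfap and at 2318 to 2911 for Vim, and these ranges overlapped those of the lactating mice. The highest lactating values, 1260 for Gfap and 3016 for Vim, were in lactating mouse 4. The Gfap difference was -0.03 on the log2 scale with all mice (SE 0.24; exact permutation p = 0.913) and 0.18 without virgin mouse 6 (SE 0.17; p = 0.385), and it was also above 0 without lactating mouse 1 (0.05) or lactating mouse 2 (0.07). The Vim difference went from -0.16 (SE 0.15; exact permutation p = 0.429) to -0.01 (SE 0.08; p = 0.864).

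In the same mouse, genes known to mark reactive astrocytes were high. Of 11 such genes, 10 were highest of all 12 mice in virgin mouse 6, and Hspb1, a small heat shock protein, was the exception. Lcn2, which encodes the secreted iron-carrier protein lipocalin, was at 10495 in this mouse and at 141 to 210 in the others. Cp, the copper protein ceruloplasmin, was at 887 against 241 to 621, and Serpina3n, a protease inhibitor, at 2949 against 1431 to 1972. The 621 and the 1972 were in lactating mouse 4. Cd44, a receptor for hyaluronan, was at 330 against 187 to 222. The lead was smaller in Aspg, at 374 against 302 to 359, in Timp1, at 194 against 125 to 179, and in Steap4, at 268 against 163 to 228. Steap4, Timp1, Cxcl10, Cd44, Osmr and Aspg had mean intensities below 331, the median of all clusters. The 7 microglia genes summed to 4991 in virgin mouse 6 and to 3809 to 4142 in the other mice. Among them, Cx3cr1, Csf1r, Itgam and C1qa were highest in this mouse. Aif1, Tmem119 and P2ry12 were not, at 204, 459 and 806, against up to 215, 494 and 819 in other mice. Virgin mouse 6 was the highest of 12 for 2 of the 33 astrocyte-enriched genes, Gfap and Vim, and the lowest for 6, namely Atp1b2, Slc39a12, Plcd4, Sparcl1, Gpc5 and Ednrb. The part of the reactive genes in the differences of Plcd4 and Sparcl1 was not tested. Virgin mouse 6 was also next to lactating mouse 4 in the sums of meningeal and of cortical and hippocampal genes. The part of such tissue in its values, those of Gfap and Vim included, was not tested. Without virgin mouse 6 the difference in Plcd4 was 0.09 (limma p = 0.033; exact permutation p = 0.011) and that in Sparcl1 was 0.08 (limma p = 0.061; exact permutation p = 0.024).

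**Figure D3:**
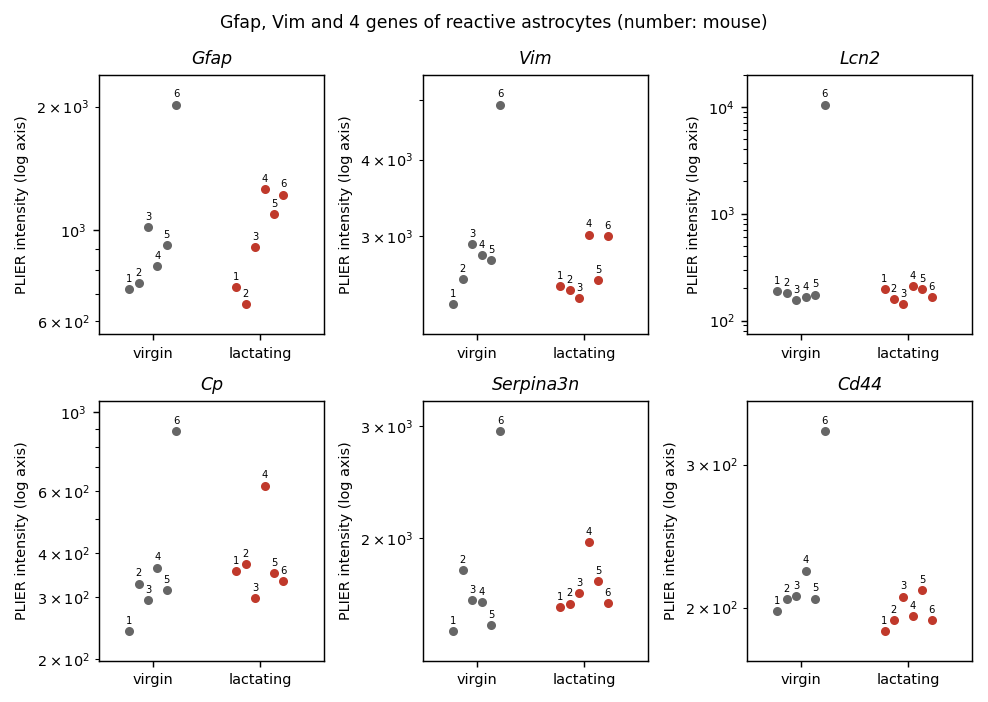
PLIER intensity on log axes of Gfap, Vim and 4 genes known from reactive astrocytes in each virgin mouse (grey) and lactating mouse (red), numbered by mouse. Virgin mouse 6 is the highest point in every panel, and for Lcn2 it lies at 10495 where the other 11 mice lie between 141 and 210.

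The 3 receptors and signaling genes did not pass the test. Ednrb, a receptor for endothelins, and Bmpr1b, a receptor for bone morphogenetic proteins, had differences of 0.01 each on the log2 scale. Ranbp3l, a relative of a Ran-binding protein, had 0.13 (SE 0.14; limma p = 0.381; exact permutation p = 0.522), and its highest value of 383 was in lactating mouse 4, against 182 to 261 in the other 11 mice. Without lactating mouse 4 the difference was -0.0042. Aldh1a1 was also highest in that mouse, at 509, and its difference went from 0.08 to 0.03 without it. Lactating mouse 4 is the mouse with high sums of meningeal and cortical genes, and the part of such tissue in these values was not tested.

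Looked at by mouse, the median level of the astrocyte-enriched genes varied little, and whether the genes varied together was not tested. The median over the 33 genes of the log2 deviation from each gene's mean lay between -0.03 and 0.08 in lactating mice and between -0.08 and 0.03 in virgin mice, so the groups overlapped. Summed intensity of the 33 genes was 88094 to 94569 in lactating and 85310 to 92059 in virgin mice. Virgin mouse 2 had the lowest level of all 12 mice for 10 genes, S100b, Cldn10, Mlc1, Aldh1l1, Acsbg1, Pla2g7, Mt3, Apoe, Htra1 and Bmpr1b. It was highest for Sox9 and Atp1b2. The share of all clusters that were lowest in this mouse was not counted. Lactating mice 3 and 6 and virgin mouse 3 were lowest for 0 genes.

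**Figure D4:**
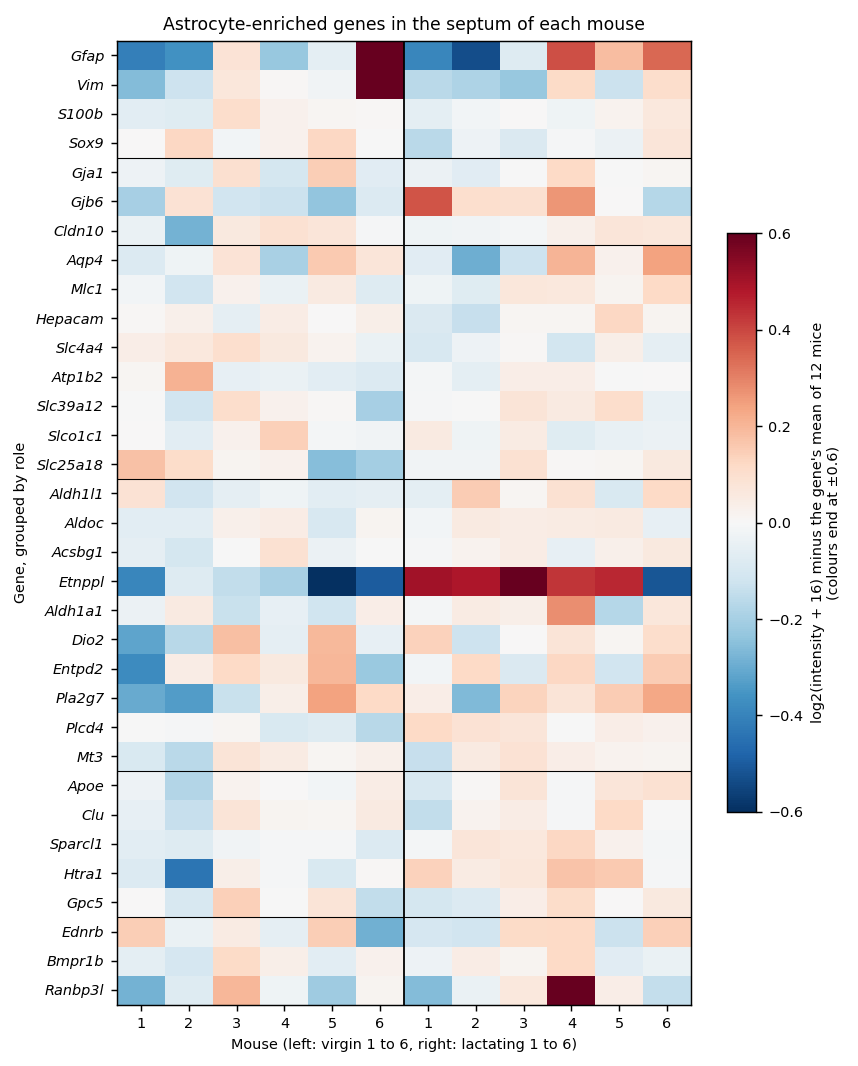
Deviation of log2(intensity + 16) from the mean of 12 mice for each of the 33 astrocyte-enriched genes, grouped by role, with virgin mice on the left, lactating mice on the right, red for above and blue for below the mean, and colours ending at 0.6 either way. Etnppl is red in 5 lactating mice and blue in lactating mouse 6, Gfap and Vim are dark red in virgin mouse 6, and most other rows are pale.

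Of a further 28 genes known from astrocytes, 3 were higher and 3 were lower. The background was 3.26% higher and 4.69% lower of all clusters, and 4.92% and 2.19% of the clusters above the median intensity. The 28 genes had a median difference of 0.0035. The higher ones were the growth factor receptor Fgfr3 (0.20 on the log2 scale; exact permutation p = 0.00216), the proline-degrading enzyme Prodh (0.17; p = 0.028) and tissue factor F3 (0.14; p = 0.035). The value for Fgfr3 is the smallest p the permutations can give. The lower ones were the fatty acid binding protein Fabp7 (-0.56; exact permutation p = 0.0065), the receptor-modulating protein Tril (-0.13; p = 0.052) and the amino acid transporter Slc7a10 (-0.09; p = 0.037). None had an adjusted p under 0.05 in limma.

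Lists for other cells were read beside the same background of 3.26% higher and 4.69% lower of all clusters. Among clusters above the median intensity it was 4.92% and 2.19%. Genes of neurons had 0 higher and 0 lower of 8 measured, those of oligodendrocytes 0 and 0 of 7, endothelium 0 and 0 of 5, meningeal fibroblasts 0 and 0 of 6, striatal neurons 0 and 0 of 4, and excitatory neurons of cortex and hippocampus 0 and 0 of 5. Microglia had 2 lower of 7, P2ry12 and Cx3cr1, ependyma 1 lower of 6, Ccdc153, and choroid plexus 1 higher of 6, Clic6. Cx3cr1, the fractalkine receptor, was at 778 to 814 in lactating and 820 to 1014 in virgin mice without overlap, a pattern shown by 0.394% of all clusters. The 1014 was in virgin mouse 6, and the other virgin mice lay at 820 to 868. For Cx3cr1 the exact permutation p was 0.00216, the smallest the permutations can give, and limma gave p = 0.048 and adjusted p = 0.623. For P2ry12, a receptor for ADP, 5 of 6 lactating mice lay below every virgin mouse. Summed microglia genes were at 3809 to 4142 in lactating and 3842 to 4991 in virgin mice, and summed cortical and hippocampal genes at 2081 to 7518 and 2223 to 3775, so the ranges of both sums overlapped. The dimmest gene of these lists was the meningeal gene Lum, with a mean intensity of 77.2.

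**Figure D5:**
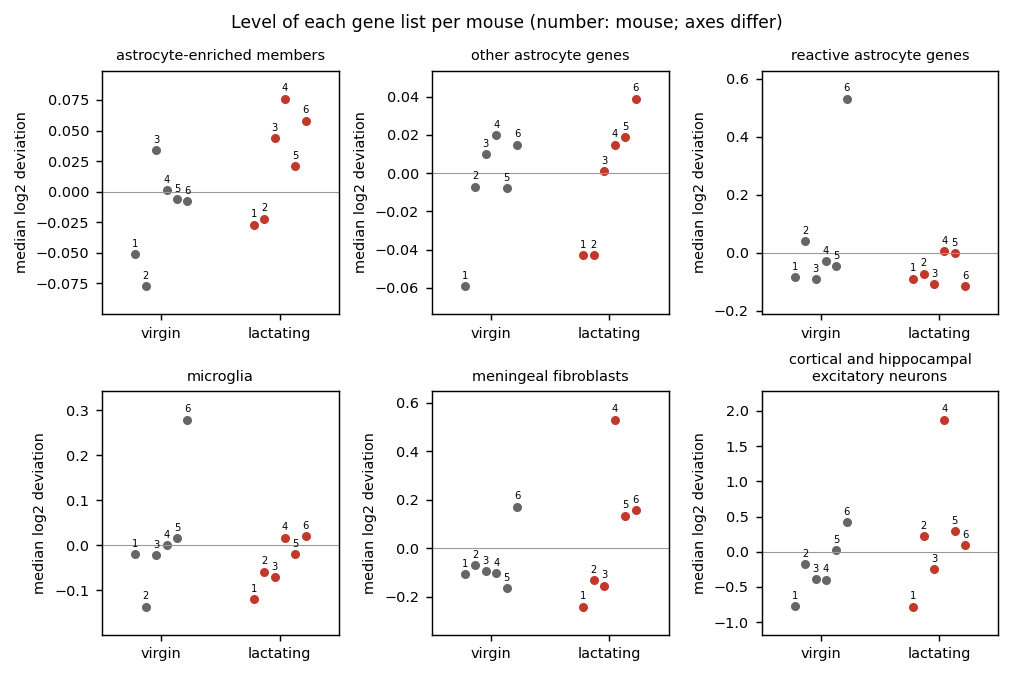
Median log2 deviation per mouse over the genes of 6 lists, with virgin mice in grey, lactating mice in red, numbers for mice and an own scale in each panel. The astrocyte panels span a narrow range with overlapping groups, virgin mouse 6 stands out for reactive astrocyte genes at 0.53 and microglia at 0.28, and lactating mouse 4 for meningeal genes at 0.53 and cortical and hippocampal genes at 1.88.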

How the data were processed

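RNA of 1 septum per mouse was hybridised to an Affymetrix mouse gene array. The authors used PLIER in Affymetrix Power Tools 1.12.0, with a correction for GC content, to summarise and normalize probes, and deposited the resulting linear intensities. The genome build of the array annotation is not given in the sources used here.

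The lists and the rule for named genes, and the 33 genes themselves, were chosen with earlier results of these data known. From the deposited intensities, log2 of intensity plus 16 was computed. Lactating mice were set against virgin mice in limma 3.58.1 under R 4.3.3 (lmFit and eBayes, two-sided) over all 35556 clusters, with Benjamini-Hochberg adjustment over all of them, and genes were called at an unadjusted p under 0.05. Values given as exact permutation p are two-sided over all assignments of the mice to groups of the same sizes. With all mice these are 924 assignments of 6 against 6, whose smallest p is 0.00216. Where mice were left out, only the remaining mice were assigned, so the assignments were fewer. Of 35556 clusters, 21789 carry 1 gene symbol, 1621 several and 12146 none. The mice are separate animals, and 12 arrays limit the precision. RNA was extracted in matched pairs, and the sources used here do not say which mice were paired. All 33 genes and their roles are named. Full values are given for genes that were called, for the 2 most positive and the 2 most negative differences, and for Gfap, Aqp4, Aldh1l1, Gja1, S100b and Sox9. The values of reactive genes by mouse, those of single microglia genes and those of Emx1 and Neurod2 were picked after they were seen. The same holds for Ranbp3l, Aldh1a1 and other values named for lactating mouse 4, and for the list sums given for single mice. Of the other astrocyte genes and the reactive astrocyte genes, up to 6 each that were called are named.

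Other settings were 3 further scalings (quantile, cyclic loess, each array's median subtracted), replicate numbers as a block, array weights, limma's trend and robust options, 1 in place of 16 as the added value, and the intensities without a log. Further settings kept only the clusters with 1 gene symbol or only the brighter ones, averaged a gene's clusters, or left out each mouse in turn. Leaving out lactating mouse 4 and virgin mouse 6 together was chosen after seeing the data. The fit was tested on simulated data with known differences. Promoters are those of RefSeq in build GRCm38.p6, found for 28 of 33 genes.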

Additional observations from a re-analysis of the deposited data

Results flagged for a closer look

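In 8 of the 66 groups of 6 mice that were looked at, 33 genes in each group, the highest or lowest mouse lay far from the nearest other, with a gap above Dixon's 95% critical share of the whole range. Chance gives about 1 in 20 such groups where groups are independent and values follow a normal distribution. The genes here were measured in the same 12 mice, so the count cannot show an excess over chance. Among virgin mice, Gfap was at 2025 and Vim at 4921 in virgin mouse 6, where the other virgin mice reached 1018 and 2911. Virgin mouse 2 had 4831 for Atp1b2, against 3948 to 4216 in the other virgin mice. It also had 9902 for Apoe, where the others had 10955 to 11529, and 1637 for Htra1, where they had 2090 to 2280. Among lactating mice, Etnppl was at 429 in lactating mouse 6, against 839 to 986 in the others. Mt3 was at 3599 in lactating mouse 1, against 4005 to 4213, and Ranbp3l was at 383 in lactating mouse 4, against 185 to 236.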

How the results depend on the processing

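All 11 alternatives in which every mouse was kept left the 5 higher genes above the threshold, and the calls on Etnppl, Gjb6, Htra1 and Plcd4 also held in limma without each single mouse, while the exact permutation p of Gjb6 exceeded 0.05 for 9 of the 12 mice left out. Leaving out 1 mouse at a time gave 4 to 5 higher and 0 to 1 lower genes, and a median difference of 0.02 to 0.06. The median was 0.0173 after quantile normalization, 0.0153 after cyclic loess and 0.0601 after subtraction of each array's median. With lactating mouse 4 and virgin mouse 6 both left out, 3 genes were higher and 0 lower, which leaves fewer mice in the fit. Lower genes numbered 2 after quantile normalization, 2 after cyclic loess, 0 after subtraction of each array's median, 0 with array weights and 0 with the replicate block, where 5 were higher. Of 6 replicate numbers, 2 had a correlation above 0.1 between the residuals of their mice. Mice of unlike numbers were not compared, so this cannot show whether the numbers mark pairs. No label says which mice were extracted together, so the replicate block was kept as an alternative only. Linear intensities give no median on the log2 scale.

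Small differences changed sign, and the cause was not tested. With both mice left out, values were 0.1007 for Gfap, 0.0001 for S100b, -0.0267 for Gja1, -0.021 for Atp1b2, -0.0429 for Gpc5, -0.0674 for Ednrb and -0.0027 for Bmpr1b. Subtraction of each array's median gave 0.0182 for S100b, 0.021 for Aqp4 and 0.0022 for Hepacam. Quantile normalization gave -0.0036 for Atp1b2, -0.013 for Gpc5 and -0.0083 for Ednrb. Cyclic loess gave -0.001 for Gja1, -0.0085 for Atp1b2, -0.0123 for Gpc5 and -0.0094 for Ednrb. Array weights gave 0.0009 for Gfap, -0.0077 for Gja1 and -0.0195 for Ednrb. On linear intensities, in intensity units, differences were 4.2078 for Aqp4 and -1.973 for Atp1b2. With each mouse left out in turn, ranges that crossed 0 were -0.1139 to 0.181 for Gfap, -0.02 to 0.0151 for S100b, -0.014 to 0.0397 for Gja1, -0.0161 to 0.0584 for Cldn10, -0.0515 to 0.0555 for Aqp4, -0.0482 to 0.0043 for Hepacam and -0.0135 to 0.0446 for Atp1b2. They were also -0.0055 to 0.0813 for Slc25a18, -0.0095 to 0.1057 for Entpd2, -0.0024 to 0.0574 for Mt3, -0.017 to 0.0402 for Clu, -0.0216 to 0.0363 for Gpc5, -0.0448 to 0.0428 for Ednrb, -0.0092 to 0.0377 for Bmpr1b and -0.0042 to 0.1934 for Ranbp3l.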

Other observations

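Genes by which astrocytes take up glutamate and potassium had differences near 0. The glutamate transporter Slc1a2 was at 8028 ± 307 in lactating and 8226 ± 191 in virgin mice (SD, n = 6 each), a log2 difference of -0.04 (SE 0.04; exact permutation p = 0.190). The glutamate transporter Slc1a3 was at 6453 ± 232 and 6421 ± 243, a difference of 0.0072 (SE 0.04; exact permutation p = 0.805). The potassium channel Kcnj10 was at 3637 ± 273 and 3551 ± 252, a difference of 0.03 (SE 0.06; exact permutation p = 0.584). The groups overlapped for all 3 genes. These genes were picked after their values were seen.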
